A study of Mus musculus with 24 samples.

Results

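The 7 genes described here are Cyp4a10, Cyp4a14, Cyp4a12a, Cyp4a12b, Cyp4a31, Cyp4a32 and Cyp4b1, a group of cytochrome P450 genes that were chosen by symbol from 55335 genes counted in the files. They had been picked for their differences between cKO and Ctrl kidneys, so those differences are given as a description without a test. Kidneys of 24 mice were used, 6 in each of 4 groups, all bred on the C57BL/6J background and all carrying Pex5lox/lox alleles. Pex5 encodes the receptor that brings enzymes into peroxisomes. In cKOm (male) and cKOf (female) mice, the transgenes Pax8-rtTA and LC1 delete Pex5 after doxycycline (DOX), and Pax8 limits the deletion to the renal tubule. Their littermates Ctrlm (male) and Ctrlf (female) had Pex5lox/lox alone and received the same DOX. Mice were 8 weeks old when DOX began, it lasted 2 weeks, and the tissue was collected 4 weeks later. The time of collection is not settled, since the labels give ZT9 of the light cycle for tissue and ZT3 for all experiments, and the study's methods give ZT3. RNA came from the whole kidney, so transcripts of cells that kept Pex5 were counted too, and fewer cells of a type cannot be told apart from less RNA per cell. The gene counts of a kidney summed to between 19376152 and 28470831 reads, and levels are given as CPM (counts scaled to the library size). Pex5 itself, counted over all exons and all cells, was at 49.1 to 62.8 CPM in Ctrlm and 41.8 to 47.3 CPM in cKOm kidneys, and at 43.0 to 61.7 CPM in Ctrlf and 38.0 to 48.5 CPM in cKOf kidneys. The study found PEX5 protein nearly gone in cKOm kidneys but still detectable in cKOf kidneys, which also kept some full-length Pex5 mRNA. It proposes incomplete excision in females, although peroxisomes were nearly absent from proximal tubules of both sexes. Between the cKO groups, sex and completeness of deletion therefore cannot be told apart. The labelled tissue held its markers, with the summed level of 10 proximal tubule genes between 9186 and 11992 CPM in all 24 kidneys.

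Enzymes of the CYP4 family place a hydroxyl group on the terminal (omega) carbon of a fatty acid. Alcohol and aldehyde dehydrogenases then oxidise this end to a second carboxyl group, and the resulting dicarboxylic acids are shortened by beta-oxidation, in large part inside peroxisomes. In rodent liver and kidney, several Cyp4a genes are targets of PPAR alpha, a nuclear receptor that is activated by fatty acids. In the mouse kidney, Cyp4a12a is the main enzyme that omega-hydroxylates arachidonic acid, and it is known to depend on androgen. The label omega-hydroxylases of the Cyp4a group holds for 6 of the 7 genes by name. Cyp4b1 belongs to the neighbouring CYP4B subfamily.

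All 7 genes lie in 1 cluster on chromosome 4 of GRCm38. In map order, the positions are chr4:115299046-115332815 for Cyp4a12a, chr4:115411624-115439034 for Cyp4a12b, chr4:115486200-115496142 for Cyp4a14, chr4:115518264-115533649 for Cyp4a10, chr4:115563649-115579015 for Cyp4a31, chr4:115600969-115621602 for Cyp4a32 and chr4:115624725-115647723 for Cyp4b1. Cyp4a14 and Cyp4b1 are on the minus strand and the others on the plus strand. The coding sequences of Cyp4a12a and Cyp4a12b differ at 23 of 1527 bases, an identity of 98.5%. Cyp4a10 shares 96.6% with Cyp4a31 and 97.2% with Cyp4a32, whereas Cyp4a14 shares between 76.1% and 77.6% with the other Cyp4a genes. Cyp4b1 shares between 66.0% and 67.2% with the 6 Cyp4a genes.

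The stretch that codes for the cysteine holding the heme iron shows these distances in 78 coding bases, which span the junction of exons 11 and 12. Capitals mark the bases that differ from Cyp4a10, of which there are 0 in Cyp4a31 and Cyp4a32, 4 in both Cyp4a12 genes, 11 in Cyp4a14 and 21 in Cyp4b1. Cyp4a12a and Cyp4a12b have the same letters here, as do Cyp4a10, Cyp4a31 and Cyp4a32, so 1 line stands for each set. The genomic spans, which include the intron, are chr4:115529484-115532573 for Cyp4a10, chr4:115328968-115331876 for Cyp4a12a, chr4:115487269-115489823 for Cyp4a14 and chr4:115625186-115625680 for Cyp4b1, in the GENCODE annotation of GRCm38.
Cyp4a10: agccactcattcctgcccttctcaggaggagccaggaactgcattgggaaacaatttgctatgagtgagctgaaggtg
Cyp4a12a: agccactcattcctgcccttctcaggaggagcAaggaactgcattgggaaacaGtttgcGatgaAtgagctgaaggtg
Cyp4a14: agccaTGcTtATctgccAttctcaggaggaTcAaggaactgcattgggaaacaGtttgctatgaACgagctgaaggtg
Cyp4b1: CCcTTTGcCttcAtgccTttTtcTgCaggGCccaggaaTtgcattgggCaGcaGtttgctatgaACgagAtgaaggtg

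How well reads separate the near copies depends on where they differ. The next lines give, for each set of near copies, the 90 coding bases with the most differences, in capitals. For the Cyp4a12 genes it lies in exon 6 (chr4:115326659-115326748 and chr4:115432912-115433001) and holds 7 of the differing positions.
Cyp4a12a: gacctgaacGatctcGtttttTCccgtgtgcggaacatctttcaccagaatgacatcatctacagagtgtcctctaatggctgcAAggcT
Cyp4a12b: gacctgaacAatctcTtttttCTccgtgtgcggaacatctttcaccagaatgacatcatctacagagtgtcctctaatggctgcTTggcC

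In the other set it lies in exon 2 (chr4:115519630-115519719 for Cyp4a10, chr4:115565010-115565099 for Cyp4a31 and chr4:115602260-115602349 for Cyp4a32), and 13 positions differ between at least a pair of the genes.
Cyp4a10: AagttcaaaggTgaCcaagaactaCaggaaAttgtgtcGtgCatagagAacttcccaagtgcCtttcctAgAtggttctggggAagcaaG
Cyp4a31: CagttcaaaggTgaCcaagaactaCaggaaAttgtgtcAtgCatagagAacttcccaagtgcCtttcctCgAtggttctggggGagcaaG
Cyp4a32: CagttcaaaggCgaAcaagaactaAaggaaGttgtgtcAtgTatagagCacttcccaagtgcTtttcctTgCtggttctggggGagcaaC

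Reads that aligned to more than 1 place were not counted on a gene and made up between 26.9% and 34.8% of the reads of a kidney. Stretches of 100 bases were taken from 1 transcript of each gene, the one with the longest reading frame, which need not hold all exons. Of these, 35.8% in Cyp4a12a and 36.2% in Cyp4a12b were found letter for letter in another gene, which was the partner in each case. The share was 20.1% in Cyp4a32, 12.7% in Cyp4a10, 8.22% in Cyp4a31, 4.46% in Cyp4b1 and 0% in Cyp4a14. The read length was not given in the sources used here. Levels of Cyp4a12a, Cyp4a12b, Cyp4a10, Cyp4a31 and Cyp4a32 are therefore uncertain, since they rest on the parts that differ, and a misplaced read moves from 1 gene to its near copy.

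All 7 genes passed the filter of at least 1 CPM in at least 1 kidney, among 16092 genes tested. Kidneys of cKOm mice did not overlap with those of Ctrlm mice for 6 of the 7 genes, with 5 higher and Cyp4b1 lower in cKOm. Over all tested genes, 3.69% were higher in this way and 3.69% lower, and nothing is read from the comparison, because it chose the genes. Kidneys of cKOf mice lay above those of Ctrlf mice for Cyp4a10, Cyp4a14, Cyp4a12b and Cyp4a31, 4 of the 7 genes, and the other 3 genes overlapped. Over all tested genes, 0.267% were higher in this way in females.

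**Figure D1:**
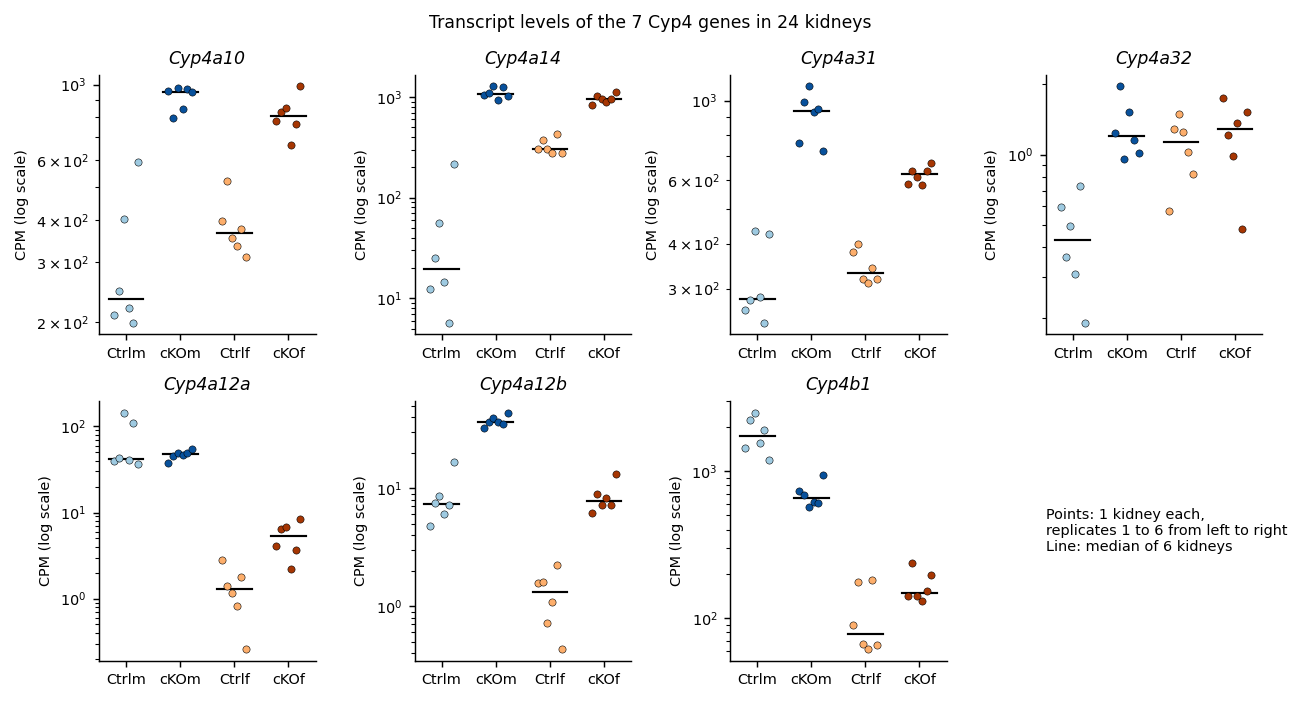
Level of each of the 7 genes in CPM on a log scale (vertical axis) in the groups Ctrlm, cKOm, Ctrlf and cKOf. Each point is 1 kidney and each line the median of 6, and for Cyp4a14 the Ctrlm kidneys run from 5.74 to 217 CPM while the cKOm kidneys lie between 939 and 1276 CPM.

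Cyp4a14 hydroxylates medium-chain and long-chain fatty acids and had the largest ratio of the highest to the lowest level of the 7 genes among Ctrlm kidneys (37.8). Its lowest, median and highest levels were 5.74, 19.7 and 217 CPM in Ctrlm and 939, 1069.8 and 1276 CPM in cKOm kidneys. In females, they were 279, 306 and 431 CPM in Ctrlf and 836, 963 and 1116 CPM in cKOf kidneys. The 4 groups formed 3 levels without overlap, with Ctrlm lowest, Ctrlf between and both cKO groups together at the top. Mean levels were 55.1 ± 81.1 CPM in Ctrlm and 1109 ± 136 CPM in cKOm kidneys (SD, n = 6), and 329.6 ± 60.9 and 964 ± 98.5 CPM in Ctrlf and cKOf kidneys (SD, n = 6). The log2 fold change of cKO against Ctrl was 4.33 ± 0.55 (standard error, SE) in males and 1.55 ± 0.49 (SE) in females. The SE came from 1 model in which all 4 groups share 1 estimate of the spread. The female SE therefore also carries the Ctrlm spread, with an SD of 147% of the mean. In Ctrlf and cKOf kidneys, the SD was 18.5% and 10.2% of the mean. The mean and SD of the Ctrlm group rested on a single kidney, replicate 6. Without it, the Ctrlm kidneys ran from 5.74 to 56.4 CPM and the male log2 fold change was 5.57.

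Cyp4a10 is, like Cyp4a14, a well-known target of PPAR alpha. It was measured at 199.6, 234 and 593 CPM (lowest, median, highest) in Ctrlm and at 796, 954 and 975 CPM in cKOm kidneys. The Ctrlf kidneys held 311, 366 and 519.7 CPM, and the cKOf kidneys 663, 806 and 988 CPM. Every cKO kidney lay above every control kidney, of either sex. The log2 fold change was 1.55 ± 0.20 (SE) in males and 1.09 ± 0.20 (SE) in females. In the Ctrlm group, the order of the kidneys was the same for Cyp4a10 as for Cyp4a14, from replicate 6 at the top through replicates 3, 2, 4 and 1 to replicate 5.

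Cyp4a31, the near copy of Cyp4a10, was at 241, 281 and 434 CPM in Ctrlm and at 724, 939 and 1096 CPM in cKOm kidneys. Among females, it was at 311, 331 and 399.8 CPM in Ctrlf and at 583, 624 and 672 CPM in cKOf kidneys. The groups kept apart by genotype in both sexes, and each cKOm kidney was also above each cKOf kidney. Its log2 fold change was 1.5 ± 0.13 (SE) in males and 0.85 ± 0.13 (SE) in females. The ratio of reads on Cyp4a10 to reads on Cyp4a31 had a median of 0.857 in control and 0.966 in cKO males, and of 1.09 in control and 1.32 in cKO females. The ratios of Ctrlm and cKOm kidneys overlapped, from 0.779 to 1.40 and from 0.805 to 1.31.

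Cyp4a32, the third gene of this set, was barely detected, with between 4 and 41 reads per kidney. It ran from 0.19 to 0.73 CPM in Ctrlm and from 0.955 to 1.96 CPM in cKOm kidneys, without overlap. The Ctrlf kidneys held 0.572 to 1.5 CPM and the cKOf kidneys 0.479 to 1.75 CPM, with no separation. Its log2 fold change was 1.55 ± 0.35 (SE) in males and 0.18 ± 0.32 (SE) in females. The part of reads misplaced from Cyp4a10 or Cyp4a31 in these low counts was not tested.

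Cyp4a12a, the arachidonic acid hydroxylase, behaved unlike the genes above in males. Its lowest, median and highest levels were 36.5, 42.2 and 145 CPM in Ctrlm and 37.6, 47.8 and 54.8 CPM in cKOm kidneys. The groups overlapped throughout, and the sign of the difference depended on the summary. The mean was lower in cKOm (47.1 ± 5.74 CPM) than in Ctrlm kidneys (68.9 ± 46.2 CPM, SD, n = 6), whereas the median was 1.13 times the Ctrlm median. Its log2 fold change between the male groups was -0.55 ± 0.32 (SE), and it was -0.19 without Ctrlm replicate 3. This kidney and replicate 5 held 145 and 109 CPM, and the other Ctrlm kidneys at most 43.3 CPM.

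In females Cyp4a12a was at 0.26, 1.29 and 2.81 CPM in Ctrlf and at 2.2, 5.29 and 8.38 CPM in cKOf kidneys. Of the 6 cKOf kidneys, 5 lay above every Ctrlf kidney. The log2 fold change was 1.94 ± 0.42 (SE), from counts of 6 to 59 reads in Ctrlf and 42 to 170 reads in cKOf kidneys.

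Cyp4a12b, which differs from Cyp4a12a at few bases, did not share its male pattern. It was at 4.81, 7.4 and 16.8 CPM in Ctrlm and at 32.5, 36.5 and 43.7 CPM in cKOm kidneys. Ctrlf kidneys held 0.433, 1.32 and 2.24 CPM, and cKOf kidneys 6.19, 7.8 and 13.2 CPM. Groups did not overlap by genotype in either sex. The log2 fold changes were 2.13 ± 0.25 (SE) in males and 2.71 ± 0.29 (SE) in females. Ctrlm replicate 6, the kidney with the most Cyp4a14, again stood at the top of its group, and the next Ctrlm kidney held 8.54 CPM.

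The share of the Cyp4a12 pair that fell to Cyp4a12b differed between groups. The ratio of Cyp4a12b reads to Cyp4a12a reads had a median of 0.135 in Ctrlm kidneys (0.0591 to 0.46) and of 0.796 in cKOm kidneys (0.713 to 0.864). In females, it was 1.2 in Ctrlf (0.559 to 1.67) and 1.54 in cKOf kidneys (1.07 to 3.79). The male groups were separate and the female groups overlapped. Because part of each gene could not be told from the other, the ratio describes the reads that were placed.

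**Figure D2:**
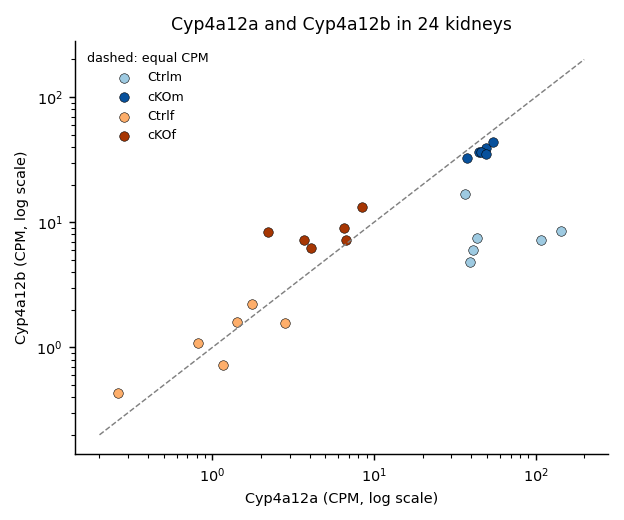
Level of Cyp4a12a (horizontal axis) against Cyp4a12b (vertical axis), both in CPM on log scales, with 1 point per kidney and a dashed line where the levels are equal. Ctrlm kidneys lie below the line at 36.5 CPM of Cyp4a12a or more, cKOm kidneys lie close below it, and all 6 cKOf kidneys lie above it.

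Cyp4b1, which hydroxylates short-chain and medium-chain fatty acids and activates some toxins, was the gene with the most reads of the 7 in Ctrlm kidneys. Its levels were 1180.0, 1723 and 2494 CPM in Ctrlm and 569, 654 and 939 CPM in cKOm kidneys. Females held much less, with 61.7, 78.2 and 183 CPM in Ctrlf and 131, 147 and 236 CPM in cKOf kidneys. All cKOm kidneys were below all Ctrlm kidneys, and 2 of 6 cKOf kidneys were above all Ctrlf kidneys. The log2 fold change was -1.38 ± 0.25 (SE) in males and 0.64 ± 0.24 (SE) in females. The Ctrlm kidney with the most Cyp4a14, replicate 6, had the least Cyp4b1.

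Of the 7 genes, 4 were also apart between the cKO groups of the 2 sexes, with all cKOm kidneys above all cKOf kidneys for Cyp4a12a, Cyp4a12b, Cyp4a31 and Cyp4b1. Over all tested genes, 3.53% were higher and 3.24% lower in cKOm kidneys in this way. The cKO levels entered the choice of the genes by genotype, so nothing is read from this comparison. The ratio of mean levels, cKOm over cKOf, was 8.94 for Cyp4a12a, 4.38 for Cyp4a12b, 1.46 for Cyp4a31 and 4.15 for Cyp4b1. For Cyp4a10 and Cyp4a14 the ratios were 1.13 and 1.15, and the groups overlapped.

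**Figure D3:**
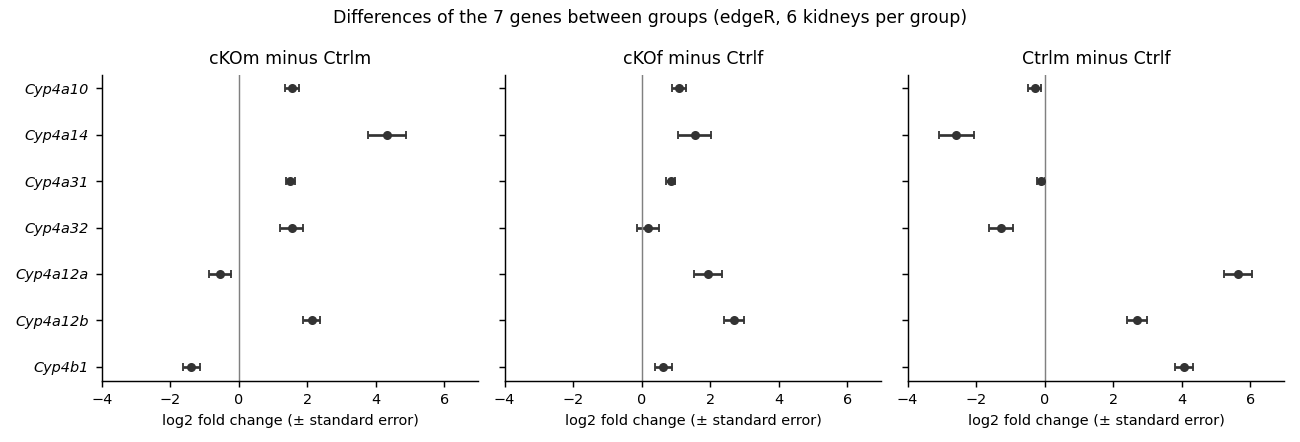
Log2 fold change (horizontal axis, with standard error) of each of the 7 genes for cKOm minus Ctrlm, cKOf minus Ctrlf and Ctrlm minus Ctrlf, from 1 edgeR model of all 24 kidneys. Cyp4a14 has the largest male difference by genotype (4.33), and Cyp4a12a the largest difference between control males and females (5.65).

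The difference between control males and control females did not itself choose the genes and was tested. It uses the same control kidneys whose values entered the choice by genotype. That choice can favour genes with high or low levels in a control group, and the adjusted p do not allow for this. Of the 7 genes, 5 passed the threshold of 0.05 on the adjusted p, 3 higher and 2 lower in Ctrlm than in Ctrlf kidneys. Over all tested genes, 16.8% passed it, 8.71% higher and 8.11% lower. Cyp4a12a, the androgen-dependent gene, was 50.3 times as high in Ctrlm kidneys by the means and 32.8 times by the medians. Its log2 fold change was 5.65 ± 0.42 (SE, edgeR adjusted p = 6.7e-11). Cyp4b1 was higher by 4.07 ± 0.27 on the log2 scale (SE, edgeR adjusted p = 7.6e-12) and Cyp4a12b by 2.71 ± 0.29 (SE, edgeR adjusted p = 6.9e-08). For these 3 genes every Ctrlm kidney was above every Ctrlf kidney, as were 3.95% of all tested genes.

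Cyp4a14 went the other way and was lower in every Ctrlm kidney than in every Ctrlf kidney, with a log2 fold change of -2.58 ± 0.51 (SE, edgeR adjusted p = 0.000533). Of all tested genes, 3.4% were lower in this way. Without Ctrlm replicate 6 it was -3.83. Cyp4a32 was lower in Ctrlm kidneys as well (log2 fold change -1.27 ± 0.35, SE, edgeR adjusted p = 0.0108), on few reads and with overlapping groups. No Ctrlm kidney held more than 0.73 CPM, so Cyp4a32 met the filter of 1 CPM only through other groups, Ctrlf among them. Its call is therefore a description. Cyp4a10 and Cyp4a31 did not pass the threshold, at -0.29 ± 0.19 (SE, edgeR adjusted p = 0.351) and -0.11 ± 0.13 (SE, edgeR adjusted p = 0.65). The Cyp4a10 value rested on Ctrlm replicate 6, since without this kidney it was -0.56 and passed (edgeR adjusted p = 0.00896). The calls thus placed both Cyp4a12 genes and Cyp4b1 on the male side and Cyp4a14 on the female side. Cyp4a32 is not placed, because it met the filter through groups where it was higher.

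Transcripts of hepatocyte markers were present in these kidneys and differed with sex and, for some of them, with genotype in males. The summed level of 23 hepatocyte markers, none of them at 0 in all kidneys, ranged from 257 to 1260 CPM in Ctrlm and 259 to 897 CPM in cKOm kidneys, and from 145 to 199 CPM in Ctrlf and 129 to 238 CPM in cKOf kidneys. Of the 23 markers, 20 were higher in Ctrlm than in Ctrlf kidneys (edgeR), 5 were lower in cKOm than in Ctrlm and 1 was higher, and none passed between cKOf and Ctrlf. Mean Alb was 322 CPM in Ctrlm and 62.0 CPM in cKOm kidneys, but mean Serpina1d was 134 and 170 CPM. The one that rose was Serpina1a (log2 fold change 0.94), so the sum does not stand for the list by genotype in males. Every Ctrlm kidney had a higher hepatocyte sum than every Ctrlf kidney, so a covariate made of it cannot be separated from sex. With this sum as a covariate, the sex difference of Cyp4a14 was -1.40, against -2.58 without it. That of Cyp4a32 was -1.41, against -1.27 without it. Neither passed with the covariate (edgeR adjusted p = 0.256 and 0.229). The sex differences of Cyp4a12a, Cyp4b1 and Cyp4a12b were 5.36, 3.73 and 3.22 with the covariate and remained past the threshold. In single kidneys, Ctrlm replicate 6 had the highest Cyp4a14 of its group and the lowest hepatocyte sum (257 CPM), and cKOm replicate 4 had the lowest Cyp4a14 of its group and the highest sum (897 CPM). Other kidneys went the other way. Ctrlm replicate 5 had the lowest Cyp4a14 (5.74 CPM) and the lowest sum but one (407 CPM), and Ctrlm replicate 3 had the highest sum (1260 CPM) and the highest Cyp4a14 but one (56.4 CPM). With the covariate, the male differences by genotype were 4.07 for Cyp4a14, 1.41 for Cyp4a10 and -1.23 for Cyp4b1.

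The sum of 8 adipocyte markers, none at 0 in all kidneys, was 769 to 1575 CPM in Ctrlm and 494 to 711 CPM in cKOm kidneys, with 1 of 7 tested markers (Lpl) lower, and was 392 to 1005 CPM in Ctrlf and 348 to 651 CPM in cKOf kidneys. Most of this sum was Lpl, at 989 ± 297 CPM in Ctrlm and 511 ± 77.3 CPM in cKOm kidneys (SD, n = 6). The other tested markers did not pass in males, with log2 fold changes between -0.30 (Retn) and 1.02 (Cidec), so the sum does not stand for the list. Of 10 proximal tubule markers, 4 were lower in cKOm than in Ctrlm kidneys (edgeR), and their sum was 10311 to 11597 CPM in Ctrlm and 9186 to 10046 CPM in cKOm kidneys. Between Ctrlm and Ctrlf kidneys, 2 proximal tubule markers were higher and 3 lower. Of 9 markers of other nephron segments, 5 were lower in Ctrlm than in Ctrlf kidneys, 2 were higher and 1 lower in cKOm than in Ctrlm kidneys, and 1 was lower in cKOf than in Ctrlf kidneys. Their sum was 4303 to 6122 CPM in Ctrlm and 5975 to 6662 CPM in cKOm kidneys, and 6779 to 7510.4 CPM in Ctrlf and 6475 to 7301 CPM in cKOf kidneys. No marker of the endothelial, stromal and macrophage list passed in any of the 3 comparisons, and of the adrenal cortex list 1 gene reached the filter and did not pass. The part of these cells in the values of the 7 genes was not tested.

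To compare levels between genes, CPM was divided by the exon length of each gene in kb. In Ctrlm kidneys, Cyp4b1 made up 70.7% ± 11.3 of the summed level of the 7 genes per kb, Cyp4a10 made up 13.2% ± 6.44 and Cyp4a31 11.5% ± 2.53 (SD, n = 6). In cKOm kidneys, the largest share was that of Cyp4a10 with 27.7% ± 1.74, followed by Cyp4a14 with 27.2% ± 2.09, Cyp4a31 with 23.1% ± 3.36 and Cyp4b1 with 19.6% ± 3.91 (SD, n = 6). Ctrlf kidneys already had Cyp4a10 in the lead, with 36.7% ± 2.70, followed by Cyp4a31 with 28.1% ± 2.74, Cyp4a14 with 25.7% ± 2.29 and Cyp4b1 with 9.15% ± 3.37 (SD, n = 6). The cKOf kidneys held 35.5% ± 1.88 of Cyp4a10, 34.2% ± 1.15 of Cyp4a14, 22.9% ± 1.24 of Cyp4a31 and 6.76% ± 1.2 of Cyp4b1 (SD, n = 6).

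The sum over the 6 Cyp4a genes was 329 ± 139 CPM per kb in Ctrlm and 1258 ± 109 in cKOm kidneys, and 447 ± 64.4 in Ctrlf and 1011 ± 99.3 in cKOf kidneys (SD, n = 6). With Cyp4b1 included, the means of Ctrlm and cKOm kidneys were closer, at 1126 ± 249 and 1565 ± 86.3 CPM per kb, and their ranges overlapped, from 864 to 1555 and from 1441 to 1679. In females they were 495 ± 87.7 and 1084 ± 112 CPM per kb, without overlap.

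**Figure D4:**
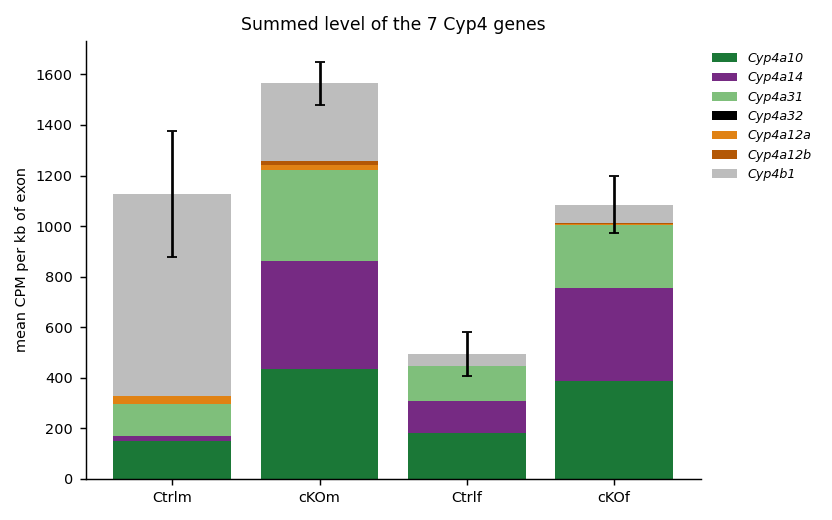
Mean level of each gene in CPM per kb of exon (vertical axis), stacked by group, with an error bar for the SD of the sum over 6 kidneys. Cyp4b1 (grey) makes up most of the Ctrlm bar and a smaller part of the cKOm bar, and Cyp4a32 is too low to be seen.

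Neighbours in the order of levels per kb were often not separate. In Ctrlm kidneys, the order was Cyp4b1, Cyp4a10, Cyp4a31, Cyp4a12a, Cyp4a14, Cyp4a12b and Cyp4a32, and the ranges of Cyp4a10 and Cyp4a31, of Cyp4a12a and Cyp4a14, and of Cyp4a14 and Cyp4a12b overlapped. In cKOm kidneys, the order was Cyp4a10, Cyp4a14, Cyp4a31, Cyp4b1, Cyp4a12a, Cyp4a12b and Cyp4a32, and the only neighbours with separate ranges were Cyp4b1 above Cyp4a12a and Cyp4a12b above Cyp4a32. Ctrlf kidneys had the order Cyp4a10, Cyp4a31, Cyp4a14, Cyp4b1, Cyp4a32, Cyp4a12a and Cyp4a12b, with separate ranges on either side of Cyp4b1 and overlap elsewhere. In cKOf kidneys, Cyp4a10 and Cyp4a14 overlapped at the top, Cyp4a31 and Cyp4b1 followed with separate ranges, and Cyp4a12b, Cyp4a12a and Cyp4a32 came last with overlap. With the length of the longest transcript in place of all exons, Cyp4a14 came above Cyp4a10 in cKOm (444 against 434 CPM per kb) and cKOf kidneys (386.3 against 385.9), and Cyp4b1 above Cyp4a31 in cKOm kidneys (365 against 362).

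Of the 5 tested genes whose levels over the 24 kidneys were most like each of 5 family members, those given here were ranked by Pearson's r of log2 CPM, as a description, since kidneys of a group share sex and genotype. For Cyp4a14, they included Acsl1 (r = 0.959), Mgll (0.920), Bhlhb9 (0.918) and Aldh1a1 (0.903). Acsl1 activates long-chain fatty acids to their CoA esters and Mgll releases fatty acids from monoglycerides. For Cyp4a10, they included Acot1 (r = 0.946), Ucp2 (0.920), Acot2 (0.908) and Acaa1b (0.902), among them 2 acyl-CoA thioesterases and a peroxisomal thiolase. Within groups, with each kidney taken as its deviation from the group mean, r was 0.778 for Cyp4a14 with Acsl1 and 0.819 with Mgll, but 0.563 with Bhlhb9 and 0.252 with Aldh1a1. For Cyp4a10, it was 0.706 with Acot1, 0.534 with Ucp2, 0.571 with Acot2 and 0.504 with Acaa1b.

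The genes most like Cyp4a12a and Cyp4b1 were others. For Cyp4a12a, they included Mogat1 (r = 0.949), Cpq (0.946), Phyh (0.937), which starts the alpha-oxidation of phytanic acid, and Tmem229a (0.935). For Cyp4b1, they were Mogat1 (r = 0.964), Ces1f (0.961), Lipo3 (0.959), Serpinf2 (0.955) and Ugt2b38 (0.953). For Cyp4a12b, values of r were lower, with Nat8f2 (0.878), Vwa8 (0.874), Etfdh (0.868), Borcs7 (0.856) and Eci2 (0.845). Within groups, r lay between 0.115 and 0.663 for the genes named for these 3.

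**Figure D5:**
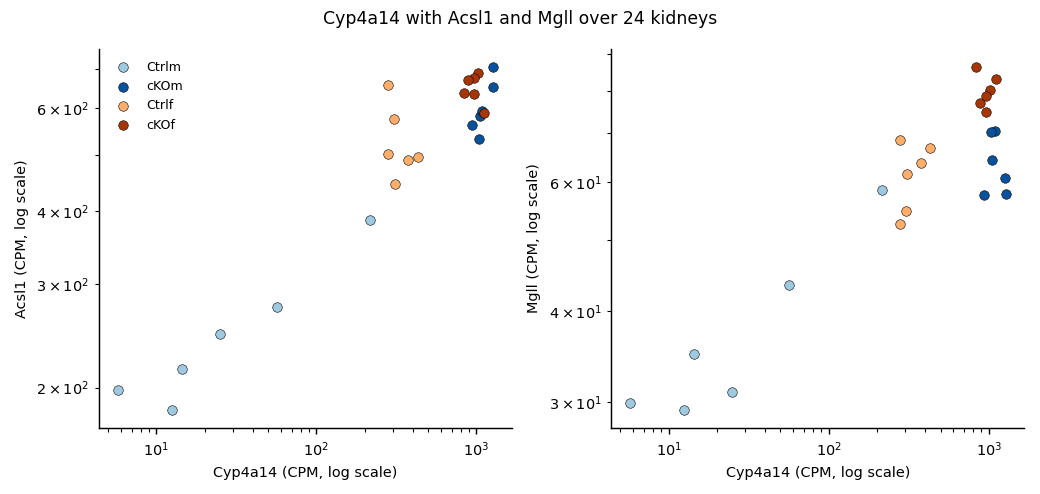
Level of Cyp4a14 (horizontal axis) against Acsl1 (left) and Mgll (right), all in CPM on log scales, with 1 point per kidney. Ctrlm replicate 6, at 217 CPM of Cyp4a14, also has the highest Acsl1 (386 CPM) and Mgll (58.6 CPM) of the Ctrlm kidneys.

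Acsl1 and Mgll placed Ctrlm replicate 6 at the same end as Cyp4a14 did, which their choice by likeness over these kidneys already favoured, so that it supports nothing. Its Acsl1 was 386 CPM, against 183 to 274 CPM in the other Ctrlm kidneys, and its Mgll was 58.6 CPM, against 29.2 to 43.4 CPM. In cKOm kidneys, Acsl1 was 532 to 707 CPM, above all Ctrlm kidneys, and Mgll was 57.7 to 70.5 CPM, which overlapped with replicate 6 alone.

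The rest of the omega-oxidation route was read from lists of genes, with the test by genotype fitted across all tested genes. The lists were set with earlier results of these kidneys known, so their calls are a description and no independent evidence. Of all tested genes, 9.05% passed the threshold between cKOm and Ctrlm kidneys, 4.14% higher and 4.9% lower in cKOm, and 0.851% passed it in females, 0.391% higher and 0.46% lower in cKOf. Median log2 fold changes over all tested genes were 0.01 in males and 0.00 in females. Over 9 lists of such genes, leaving out the markers of cell types, 53 genes passed in males and 15 in females, and 9 did so in females when each sex was adjusted on its own. Few other Cyp4 genes passed. Of 13 listed, 7 were tested, and in males Cyp4f16 rose by 0.65 ± 0.16 (SE, edgeR adjusted p = 0.0131) and Cyp4f15 fell by 1.78 ± 0.49 on the log2 scale (SE, edgeR adjusted p = 0.03). None passed in females, and the medians were -0.01 and -0.13. Cyp4a29 and Cyp4f37 had no read in any kidney. Cyp4a30b, which lies between Cyp4a12b and Cyp4a14, had at most 1 read per kidney. Cyp4x1, which lies beyond Cyp4a29 at the Cyp4a12a end of the cluster, had at most 3 reads per kidney.

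Most genes that act right after the CYP4 enzymes were lower in cKOm kidneys. Of 5 tested genes for the alcohol and aldehyde steps, 4 fell in cKOm kidneys, namely Adh1 (log2 fold change -1.08), Adh5 (-0.42), Aldh3a2 (-0.29) and Aldh9a1 (-0.24) (edgeR adjusted p from 1.5e-05 to 0.00932), with a median of -0.29 over the 5. Aldh3a2 encodes the fatty aldehyde dehydrogenase. None of the 5 passed in females, where the median was 0.02. Of 5 genes that supply electrons to P450 enzymes, Cyb5a, a cytochrome b5, fell by 0.93 ± 0.10 on the log2 scale in cKOm kidneys (SE, edgeR adjusted p = 8.3e-07). Por, the main P450 reductase, was at -0.39 and did not pass (edgeR adjusted p = 0.0684). The median was -0.21 in males and 0.08 in females, where none passed.

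Genes of dicarboxylic acid beta-oxidation mostly went the other way. Of 13 tested genes, 7 rose and 2 fell in cKOm kidneys (median 0.27), and 5 rose and 0 fell in cKOf kidneys (median 0.29). In males, the largest changes were those of Acot3 (2.0), Acsl1 (1.27), Acaa1b (1.23), Crot (-1.07) and Ehhadh (0.75), with edgeR adjusted p from 1.7e-08 to 7.9e-05 for the last 4 and 3.25e-09 for Acot3. The other gene that fell was Slc27a2 (-0.50, edgeR adjusted p = 0.000144), an acyl-CoA synthetase. Ehhadh is the peroxisomal bifunctional enzyme that acts on dicarboxylic acids, and Crot hands shortened chains to carnitine for export. In females, Acaa1b rose by 1.14, Acot3 by 0.96, Ehhadh by 0.54, Acot4 by 0.47 and Abcd3, a peroxisomal transporter, by 0.42 (edgeR adjusted p from 8.4e-06 to 0.0108).

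Of 24 tested targets of PPAR alpha, 13 rose and 2 fell in cKOm kidneys (median 0.34), and 8 rose and 0 fell in cKOf kidneys (median 0.40). Among the largest male changes were those in Pdk4 (2.15), which restrains pyruvate oxidation, Angptl4 (1.54), an inhibitor of lipoprotein lipase, Acot2 (1.48) and Acot1 (1.30), with edgeR adjusted p from 7.6e-08 to 0.00346. The 2 that fell in males were Cd36 (-0.72), a fatty acid transporter, and Acadm (-0.52), the medium-chain acyl-CoA dehydrogenase (edgeR adjusted p = 0.00204 and 0.0153). The largest female changes were in Creb3l3 (1.74), Angptl4 (1.36), Acot1 (1.06), Ucp2 (0.85) and Vnn1 (0.77), with edgeR adjusted p from 7.2e-05 to 0.0416. Creb3l3 was low, with means of 0.27 CPM in Ctrlf and 0.92 CPM in cKOf kidneys and at most 39 reads per kidney. In males it was at -0.48 and did not pass (edgeR adjusted p = 0.701). The receptors themselves did not pass. Ppara was at 0.54 ± 0.24 in males (SE, edgeR adjusted p = 0.261) and -0.08 in females (edgeR adjusted p = 0.923), and none of the other 7 genes of the receptor list, among them Ppard, Pparg, Rxra, Rxrb, Ppargc1a and Ncor1, passed in either sex.

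Of other arachidonic acid genes, most that passed were lower in cKOm kidneys. Of 11 tested, 5 fell and 1 rose in cKOm kidneys (median -0.28), and none passed in females (median 0.10). The largest falls were in Cyp2j13 (log2 fold change -1.21), Ephx2 (-0.88), the soluble epoxide hydrolase, Hpgd (-0.59), which inactivates prostaglandins, and Cyp2j5 (-0.45), and Ephx1 rose by 0.33 (edgeR adjusted p from 1.3e-06 to 0.0429).

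Of the 3 family members higher in Ctrlm than in Ctrlf kidneys, Cyp4b1 was lower in cKOm than in Ctrlm kidneys. Cyp4a12b was higher, and Cyp4a12a overlapped. The listed sex-dependent kidney genes were mostly lower in cKOm kidneys. Of 13 tested, 11 fell and 1 rose in cKOm kidneys (median -1.47), and 1 fell in cKOf kidneys (median -0.04). In control kidneys, 11 of the 13 were higher and 1 lower in Ctrlm than in Ctrlf kidneys. Slc22a7 did not pass between these groups (log2 fold change -0.20, edgeR adjusted p = 0.677). The largest male falls were in Slco1a1 (log2 fold change -7.56) and Slc22a7 (-4.10), both organic anion transporters, Acsm3 (-4.01) and Timd2 (-3.55), and Slc7a12, which was higher in Ctrlf kidneys, rose by 3.25 (edgeR adjusted p from 6.2e-12 to 3.4e-07). Of 10 genes of androgen and growth hormone signalling, 1 rose and 3 fell in cKOm kidneys (median -0.01), and Srd5a1 alone fell in cKOf kidneys (-0.39, edgeR adjusted p = 0.01). Hnf4a, a nuclear receptor of the proximal tubule, was at 0.20 in cKOm against Ctrlm kidneys (edgeR adjusted p = 0.149). Ghr, the growth hormone receptor, fell by 0.33 on the log2 scale (edgeR adjusted p = 0.0175). Srd5a2 (-1.85) and Srd5a1 (-1.16), which encode enzymes that make dihydrotestosterone, fell as well, and Prlr, the prolactin receptor, rose by 2.54 (edgeR adjusted p from 3.25e-09 to 5.0e-05).

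The same lists were compared between control males and control females. For the alcohol and aldehyde steps, 4 of 5 were higher in Ctrlm kidneys and none lower, led by Adh1 at 2.07 (edgeR adjusted p = 3.8e-11). For electron supply, 3 of 5 were higher, led by Cyb5a at 1.18 (edgeR adjusted p = 2.1e-09). Dicarboxylic acid beta-oxidation was split, with 3 higher and 2 lower of 13. Acsl1 and Acot3, at -1.07 and -2.0, were lower in Ctrlm kidneys (edgeR adjusted p = 5.2e-07 and 1.7e-10), and Crot, at 1.36, was among the higher ones (edgeR adjusted p = 1.9e-11). PPAR alpha targets gave 5 higher and 4 lower of 24. Rxra, the partner of the PPAR receptors, was higher by 0.31 (edgeR adjusted p = 0.000736), and no other gene of the receptor list passed. Of androgen and growth hormone genes, Bcl6, Srd5a2 and Srd5a1 were higher in Ctrlm kidneys and Prlr was lower (-3.95, edgeR adjusted p = 1.7e-08). The list of arachidonic acid genes gave 4 higher and 2 lower of 11, and of other Cyp4 genes 1 of 7 was higher, namely Cyp4f15 at 2.02 (edgeR adjusted p = 0.00462).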

How the data were processed

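Whole-kidney RNA of 24 mice was sequenced from stranded mRNA libraries. Per the labels, the authors used cutadapt 1.8, STAR 2.5.3a and HTSeq 0.9.1 with GRCm38, and they deposited raw read counts per gene for each kidney, without normalization. Groups were taken from the labels. The 5 closing lines of each file were set aside. Names, lengths and sequences came from GENCODE M21, which named 55154 of 55335 genes.

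Counts of genes that reached 1 CPM in at least 1 kidney were fitted with edgeR 4.0.16 in R 4.3.3 (TMM, 1 model of 4 groups, quasi-likelihood tests). The Benjamini-Hochberg adjustment covered both genotype tests together, and all genes for Ctrlm against Ctrlf, with a threshold of 0.05. The SE of a log2 fold change was its absolute value divided by the square root of the F statistic. It rests on a spread shared by the 4 groups, not on the 2 groups compared. The log2 CPM used a prior count of 2. The procedure was tested on simulated data. Total counts of 19376152 to 28470831 per kidney set a detection floor of 3 counts, which covers counting error only.

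The members and lists were chosen with earlier results of these data known. Named are the members, the 5 tested genes most like each of 5 members, at most 5 genes per list with the largest change past the threshold, and the regulators Ghr and Hnf4a and the PPAR list whatever their values. A few genes named by these rules are not reported in the text but stay in every count. Por, Acadm, Cd36, Slc27a2, Lpl, Pex5 and the untested Cyp4 genes in and beside the cluster were added after their values were seen. The alternatives were DESeq2 1.42.0, limma-voom (limma 3.58.1), RLE normalization, 2 other filters, only the 2 groups compared, the replicate number as a block, hepatocyte markers as a covariate, adjustment within each sex, and each kidney left out. Tables and figures used Python 3.11.15, pandas 2.3.3, numpy 2.4.6, biopython 1.88 and matplotlib 3.10.9.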

Additional observations from a re-analysis of the deposited data

Results flagged for a closer look

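Ctrlm replicate 6 held 217 CPM of Cyp4a14, while the next of the 6 Ctrlm kidneys held 56.4 CPM. The same kidney held 16.8 CPM of Cyp4a12b, and the next one 8.54 CPM. In both cases its gap to the next kidney, divided by the range of the group (0.760 and 0.688), was above Dixon's critical value of 0.625 for 6 samples. Of 28 groups of kidneys checked over the 7 genes, these 2 stood out, and chance alone picks about 1 in 20. This kidney was kept.

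The genotype difference of Cyp4b1 had opposite directions in the sexes, at -1.38 (males) and 0.64 (females) on the log2 scale. For Cyp4a12a, the values were -0.55 (males) and 1.94 (females). In both genes every cKOm kidney was below the mean of Ctrlm and every cKOf kidney above the mean of Ctrlf, but for Cyp4a12a all cKOm kidneys lay within the range of Ctrlm kidneys. The Ctrlm mean of Cyp4a12a was raised by replicates 3 and 5 (145 and 109 CPM), and by medians the male direction turned, with 42.2 CPM in Ctrlm and 47.8 CPM in cKOm kidneys. The difference between the sexes was not tested, since the genes were chosen from these values.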

How the results depend on the processing

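For Ctrlm against Ctrlf, 2707 genes passed, and 2333 to 2936 with 1 kidney left out. Of the other settings, the hepatocyte covariate moved this number furthest, to 835. There the log2 fold changes of Cyp4a10 and Cyp4a31 turned to 0.094 and 0.018 (edgeR adjusted p = 0.924 and 0.981), and Cyp4a14 and Cyp4a32 no longer passed. The cause was not tested, and this covariate cannot be separated from sex, since all Ctrlm kidneys had a higher sum than all Ctrlf kidneys. DESeq2 gave no adjusted p for Cyp4a14 in this comparison, at a log2 fold change of -2.57. The calls of Cyp4a12a, Cyp4a12b and Cyp4b1 held under all settings run.

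For cKOm against Ctrlm, 1456 genes passed, 1152 to 1726 with 1 kidney left out and 889 with the covariate. The 667 higher ones became 443 with every gene with a count tested, and 435 without cKOm replicate 5. For cKOf against Ctrlf, 137 passed, and 108 to 173 with 1 kidney left out. Adjustment within each sex left 43, and 9 in place of 15 listed genes. No male or female difference of the 7 genes by genotype changed direction under any setting.

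Replicate numbers showed no visible pairing of the mice, though a weak pairing could escape this check. Over 36 pairs with the same number, r of the deviations was -0.20 to 0.12, and 0 kidneys were closest to their own number. With the number as a block, 2415, 1268 and 110 genes passed in these comparisons, listed genes numbered 52 in males and 17 in females, and no call of the 7 genes between control sexes changed.

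Depth limits Cyp4a32, at 4 to 41 reads per kidney, and Cyp4a12a and Cyp4a12b in Ctrlf, at 6 to 70 reads.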
